A study of Mus musculus with 6 samples.

Results

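The miR-99b, let-7e and miR-125a cluster is a group of 3 microRNA hairpins inside the mouse gene Spaca6, and its mature arms were followed in small RNA libraries of immune cells isolated from mouse liver. The 5 members were the rows of the deposited count table named miR-99b-5p, miR-99b-3p, let-7e-5p, miR-125a-5p and miR-125a-3p. All 5 were found among the 1960 rows, and all 5 were among the 297 miRNAs with enough counts to test. The sixth arm of the cluster, let-7e-3p, also has a row and is given beside them. Mice were wildtype C57BL/6J females aged 10 weeks, in 3 groups of 2 libraries each, which the labels call biological replicates. In the ConA+D8THC group, hepatitis was set off by a retro-orbital dose of 12.5 mg/kg concanavalin A (ConA), a lectin from jack beans whose T cell activation injures the liver. These mice were also given the cannabinoid delta-8-tetrahydrocannabinol (D8THC) intraperitoneally, 20 mg/kg in 100 µL of DMSO and corn oil. The first D8THC dose preceded ConA by 15 to 18 h and the second followed it by 30 min. ConA+Vehicle mice had the same ConA dose and DMSO in corn oil without the drug, and Vehicle mice had no disease and received DMSO in corn oil. The sources used here do not give the number of mice behind a library or the hour of collection, and the p-values below measure only the spread between these libraries.

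MicroRNAs are short RNAs that guide Argonaute proteins to messenger RNAs, mainly through the seed, bases 2 to 8 counted from the 5′ end. Each hairpin yields a 5p and a 3p arm, of which usually the more stable guide arm accumulates and the passenger arm is degraded. In mice and humans the 3 hairpins are transcribed together, and the cluster is known from haematopoietic stem cells, macrophages and endothelium. The miR-99 and miR-100 miRNAs are known to lower mTOR, let-7 miRNAs to restrain growth-promoting genes such as Lin28 and Ras family members, and miR-125a to act in blood stem cell survival and regulatory T cell stability in mice.

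The sequences show which arms carry which seed, in capitals, and so which other miRNAs can reach the same targets. They are RefSeq sequences of build GRCm38.p6, the assembly also called mm10, which the submitters' processing notes name. All lie on the plus strand of chromosome 17.
miR-99b-5p, 17830194 to 17830215: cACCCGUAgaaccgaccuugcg
miR-99b-3p, 17830232 to 17830253: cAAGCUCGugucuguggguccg
let-7e-5p, 17830366 to 17830387: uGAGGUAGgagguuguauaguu
let-7e-3p, 17830411 to 17830432: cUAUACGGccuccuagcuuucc
miR-125a-5p, 17830817 to 17830840: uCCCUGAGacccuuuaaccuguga
miR-125a-3p, 17830855 to 17830876: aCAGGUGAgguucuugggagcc

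The 3 guide arms have 3 different seeds, so the cluster contributes to 3 target families rather than 1. Relatives with the same seeds are encoded elsewhere and were counted in the same libraries. They are miR-99a-5p and miR-100-5p for miR-99b-5p, miR-125b-5p for miR-125a-5p, and let-7a-5p and let-7c-5p among those of let-7e-5p. They come from the paralogous clusters on chromosome 16 (miR-99a, let-7c-1, miR-125b-2) and chromosome 9 (miR-100, let-7a-2, miR-125b-1), with seeds again in capitals. The let-7a-5p, let-7c-5p and miR-125b-5p rows each pool more than 1 genomic copy.
miR-99a-5p: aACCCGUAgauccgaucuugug
miR-100-5p: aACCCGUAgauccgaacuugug
let-7a-5p: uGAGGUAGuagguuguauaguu
let-7c-5p: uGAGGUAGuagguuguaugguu
miR-125b-5p: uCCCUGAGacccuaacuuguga
Counted from 1 at the 5′ end, let-7e-5p differs from let-7a-5p by U9G alone, and from let-7c-5p by U9G and G19A. miR-99b-5p differs from miR-99a-5p at 4 positions, A1C, U11A, U16C and U21C. Whether reads matching several let-7 rows were divided or dropped is not stated in the sources used here, and let-7e-5p counts could be affected by it.

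The mature arms spanned 683 bases of the 15852-base Spaca6 gene (chromosome 17, 17827158 to 17843009, plus strand, GENCODE M21). Spaca6 itself encodes a sperm protein needed for fertilisation. Both arms of miR-99b and of let-7e lay in introns of the 2 annotated Spaca6 transcripts that span them. miR-125a-5p lay within an exon of 1 further Spaca6 transcript and in introns of the others that span it, and miR-125a-3p crossed the end of that exon. GENCODE also annotates a miRNA gene, Gm25927, on the minus strand across let-7e.

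**Figure D1:**
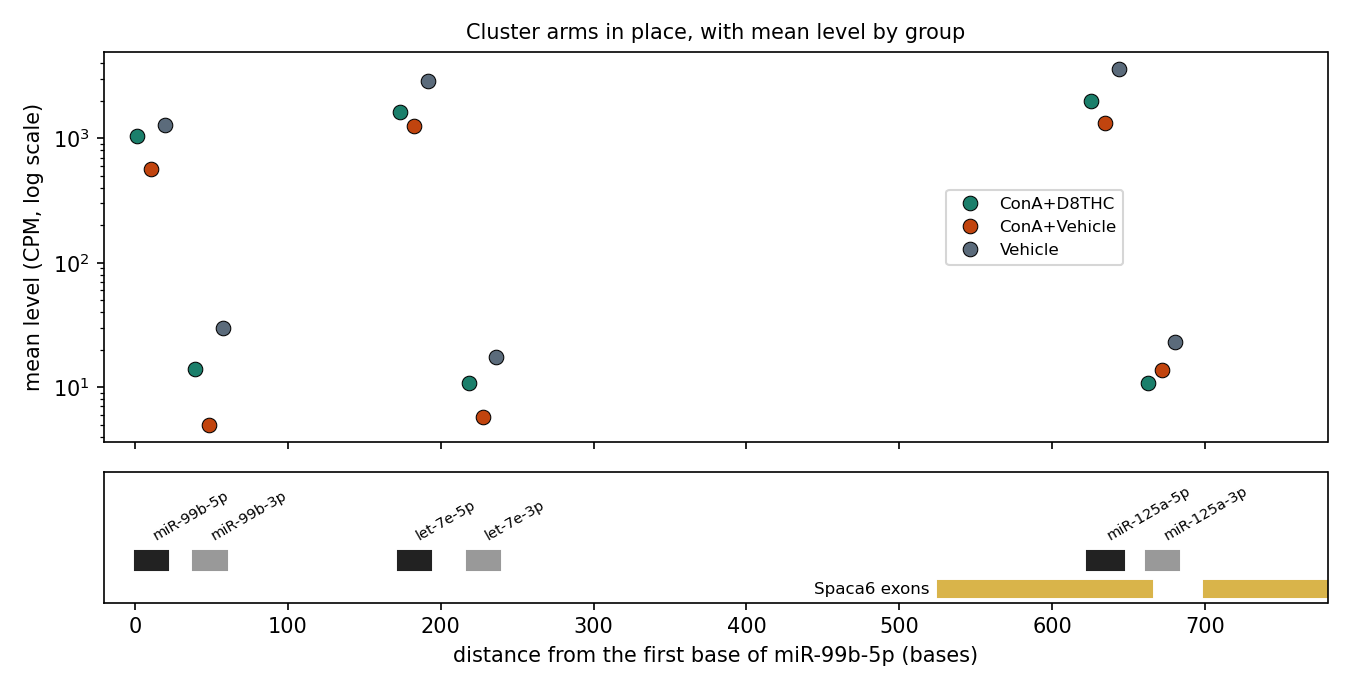
Position of the 6 arms as distance in bases from the first base of miR-99b-5p (horizontal) and their mean level in CPM on a log scale (vertical), with points for ConA+D8THC, ConA+Vehicle and Vehicle, each a mean of 2 libraries; below, 5p arms are black, 3p arms grey and Spaca6 exons yellow. The 5p arms have means of 570 CPM or more in every group and the 3p arms of 30.1 CPM or less.

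Library totals ran from 322764 to 1172389 counts, with the lowest in ConA+Vehicle. Levels are given in CPM, counts scaled to library size with TMM factors, and 3 counts, the limit that a count of 0 allows, correspond to 2.63 to 9.93 CPM. The libraries held markers of several cell types besides immune cells. The pan-haematopoietic miR-142a arms took 9.45% ± 2.45 (SD, n = 2) of counts in ConA+D8THC, 9.66% ± 0.886 in ConA+Vehicle and 4.92% ± 3.38 in Vehicle. The endothelial miR-126a arms took 20.7% to 26.7% in ConA+D8THC, 12.8% to 13.2% in ConA+Vehicle and 32.7% to 34.2% in Vehicle. The hepatocyte list of 6 took 5.18% to 7.15% in ConA+D8THC, 17.1% to 19.7% in ConA+Vehicle and 8.35% to 13.9% in Vehicle. No marker on these lists was at 0 in any library. In such mixed samples, fewer cells of a type and less of an RNA per cell cannot be told apart.

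The cluster was a small, guide-dominated part of each library. Its 5 members together took 0.486% ± 0.0332 of counts in ConA+D8THC, 0.315% ± 0.0118 in ConA+Vehicle and 0.758% ± 0.154 in Vehicle. miR-125a-5p was the most abundant member, ranked 47 of the 297 tested miRNAs by mean level, followed by let-7e-5p at 52 and miR-99b-5p at 66. The passenger arms ranked 261 (miR-99b-3p) and 264 (miR-125a-3p). Mature miRNAs have nearly the same length, so no length correction was applied, but adapter ligation favours some sequences and levels of different miRNAs are only roughly comparable.

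miR-125a-5p measured 1874 and 2096 CPM in the ConA+D8THC libraries, 1379 and 1284 CPM in ConA+Vehicle, and 3160 and 4023 CPM in Vehicle. The 3 groups did not overlap, with ConA+Vehicle lowest and Vehicle highest. let-7e-5p measured 1479 and 1767 CPM in ConA+D8THC, 1162 and 1344 CPM in ConA+Vehicle, and 2543 and 3286 CPM in Vehicle, again in 3 groups without overlap and in the same order. miR-99b-5p measured 983 and 1111 CPM in ConA+D8THC, 504 and 635 CPM in ConA+Vehicle, and 1010 and 1534 CPM in Vehicle. For miR-99b-5p the lower Vehicle library fell between the ConA+D8THC libraries, so that these groups overlapped. Among the 3 guide arms, the libraries of miR-125a-5p and let-7e-5p overlapped within ConA+Vehicle and within Vehicle, while miR-99b-5p was below both in every library.

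**Figure D2:**
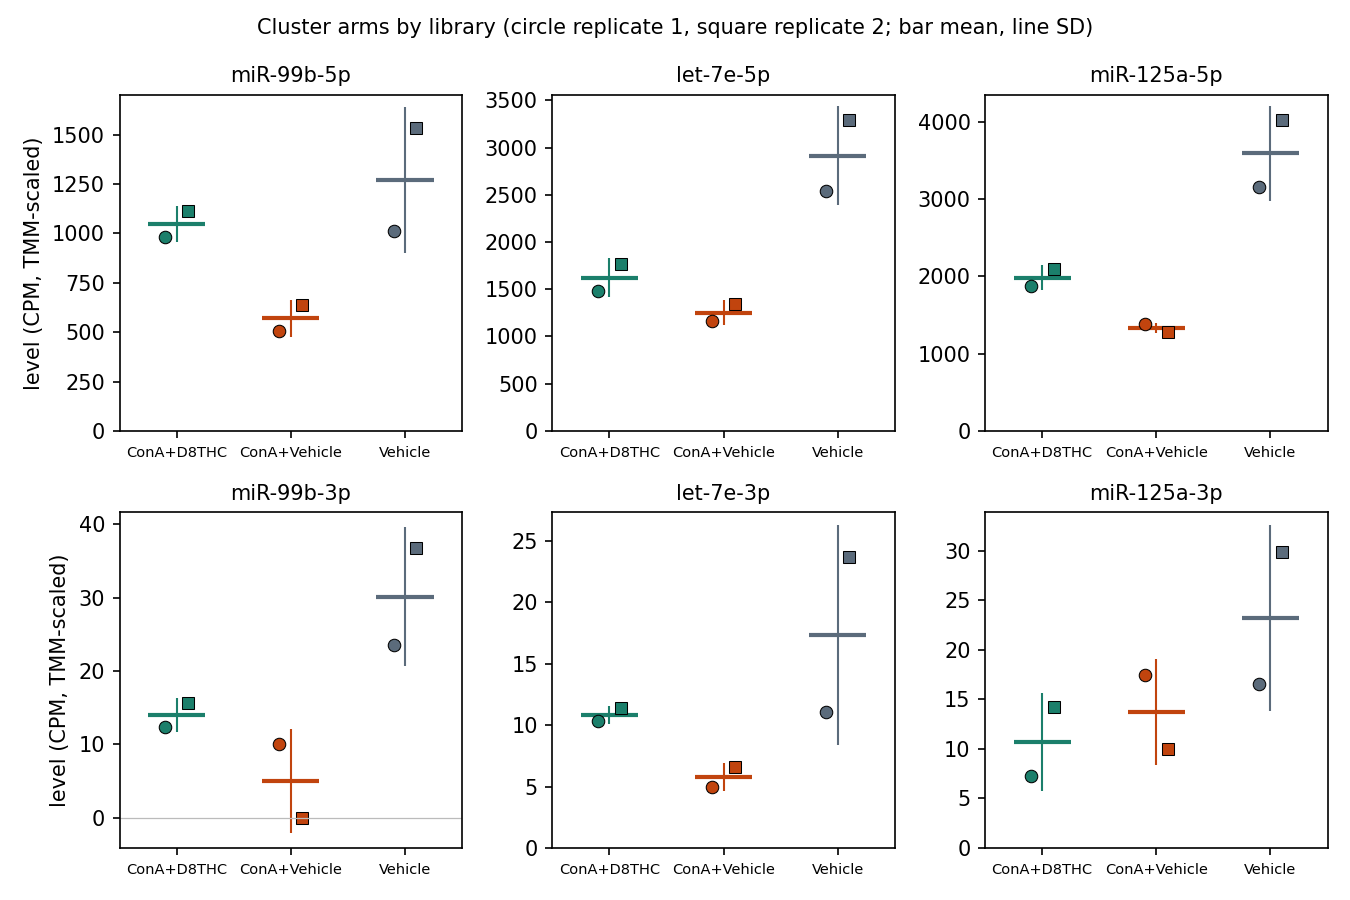
Level in CPM (vertical, each panel from 0 or just below it) of the 6 arms in ConA+D8THC, ConA+Vehicle and Vehicle; symbols are libraries, bars means and lines SD over 2 libraries. The guide arms (upper panels) are lowest in ConA+Vehicle and the passenger arms (lower panels) all lie below 40 CPM.

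The question of how the cluster stands in ConA hepatitis is addressed by ConA+Vehicle against Vehicle. All 3 guide arms fell. The endothelial share of counts given above was also lower and the hepatocyte and haematopoietic shares higher in ConA+Vehicle, and their part in these values was not tested. Of the 6 hepatocyte markers, 4 were called higher and 1, miR-122-3p, was called lower (log2 -1.19 ± 0.33, edgeR adjusted p = 0.0167). Among all 297 tested miRNAs, 59 were called higher and 50 lower. miR-125a-5p averaged 1331 ± 66.9 CPM in ConA+Vehicle and 3591 ± 610 CPM in Vehicle (SD, n = 2 each), which was 2.70-fold lower (log2 -1.43 ± 0.22 SE, edgeR quasi-likelihood test, Benjamini-Hochberg adjusted p = 0.000703). let-7e-5p averaged 1253 ± 129 CPM in ConA+Vehicle and 2915 ± 525 CPM in Vehicle, a log2 fold change of -1.22 ± 0.23 (edgeR adjusted p = 0.00211). miR-99b-5p averaged 570 ± 93.2 CPM in ConA+Vehicle and 1272 ± 370 CPM in Vehicle, a log2 fold change of -1.16 ± 0.26 (edgeR adjusted p = 0.00579). Without ConA+Vehicle replicate 1 the call of miR-99b-5p ended (log2 -0.98, adjusted p = 0.0627). Over the 16 alternatives its adjusted p ran between 5.50e-06 and 0.0627.

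The passenger arms rested on few counts. miR-99b-3p had 4 and 0 counts in ConA+Vehicle, against 17 and 42 counts in Vehicle. It was called lower in edgeR (log2 -2.42 ± 0.75, adjusted p = 0.0259), but it passed the filter through 1 ConA+D8THC library and both Vehicle libraries, and so could hardly be tested unless it was higher there. Its call ended in DESeq2 (adjusted p = 0.0727), without Vehicle replicate 2 (0.0511) and without ConA+Vehicle replicate 2 (log2 -1.61, 0.123). Its adjusted p ran between 0.000925 and 0.123 over the alternatives. With ConA+Vehicle replicate 1 left out, the group held no count of it and the fitted log2 value of -7.56 is no measure of size. miR-125a-3p had 7 and 3 counts in ConA+Vehicle, against 12 and 34 in Vehicle, and was not called (log2 -0.75 ± 0.58, edgeR adjusted p = 0.345). let-7e-3p had 2 and 2 counts in ConA+Vehicle, against 8 and 27 in Vehicle, too few to be tested.

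Set against all miRNAs of this comparison, 4 of the 5 members were called lower, where 16.8% of the tested miRNAs were. For 4 of 5 members both ConA+Vehicle libraries lay below both Vehicle libraries, where 29.3% of tested miRNAs did so. The median log2 fold change was -1.22 over the 5 members and 0.10 over all 297. The members share a transcript and 2 pairs share a hairpin, so they are not independent of each other. The 3 guide arms passed the filter on low counts in all 6 libraries, and all 3 were called. miR-125a-3p passed it in 1 library of ConA+D8THC, 1 of ConA+Vehicle and both of Vehicle, and like miR-99b-3p owed its place in the test mainly to Vehicle, so nothing is read from counts over all 5.

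The paralogous clusters held 9 rows, of which 7 were tested. Of these, 4 were called lower in ConA+Vehicle against Vehicle, where 16.8% of all tested miRNAs were. miR-99a-3p, among the others tested, passed the filter through the Vehicle libraries alone. The 2 untested rows, miR-100-3p and miR-125b-1-3p, had 9 and 18 counts over all libraries. The mTOR-lowering relatives miR-99a-5p (log2 -1.61 ± 0.23, edgeR adjusted p = 0.000418) and miR-100-5p (log2 -1.77 ± 0.24) both fell. miR-125b-5p, a relative of miR-125a-5p with broad roles in blood cells, fell by 1.09 on the log2 scale, to 2573 and 2502 CPM in ConA+Vehicle, against 4976 and 5853 CPM in Vehicle. The let-7 rows were unequal. let-7c-5p fell (log2 -0.81 ± 0.23), while let-7a-5p, the row 1 base from let-7e-5p, was not called (log2 -0.29 ± 0.20, adjusted p = 0.293). Over the 10 let-7 family rows, let-7e-5p among them, 4 were called lower, beside the same 16.8% of all tested miRNAs. Their median log2 fold change was -0.23.

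The wider relatives fell as well. miR-10a-5p and miR-10b-5p, Hox-cluster miRNAs related to the miR-99 and miR-100 group but with the different seed ACCCUGU, changed by log2 -1.62 ± 0.20 and -1.31 ± 0.27 in ConA+Vehicle against Vehicle. miR-351-5p, which has the seed of miR-125a-5p, changed by log2 -1.89 ± 0.38 (edgeR adjusted p = 0.00308 for miR-351-5p, 0.000348 for miR-10a-5p and 0.00369 for miR-10b-5p).

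**Figure D3:**
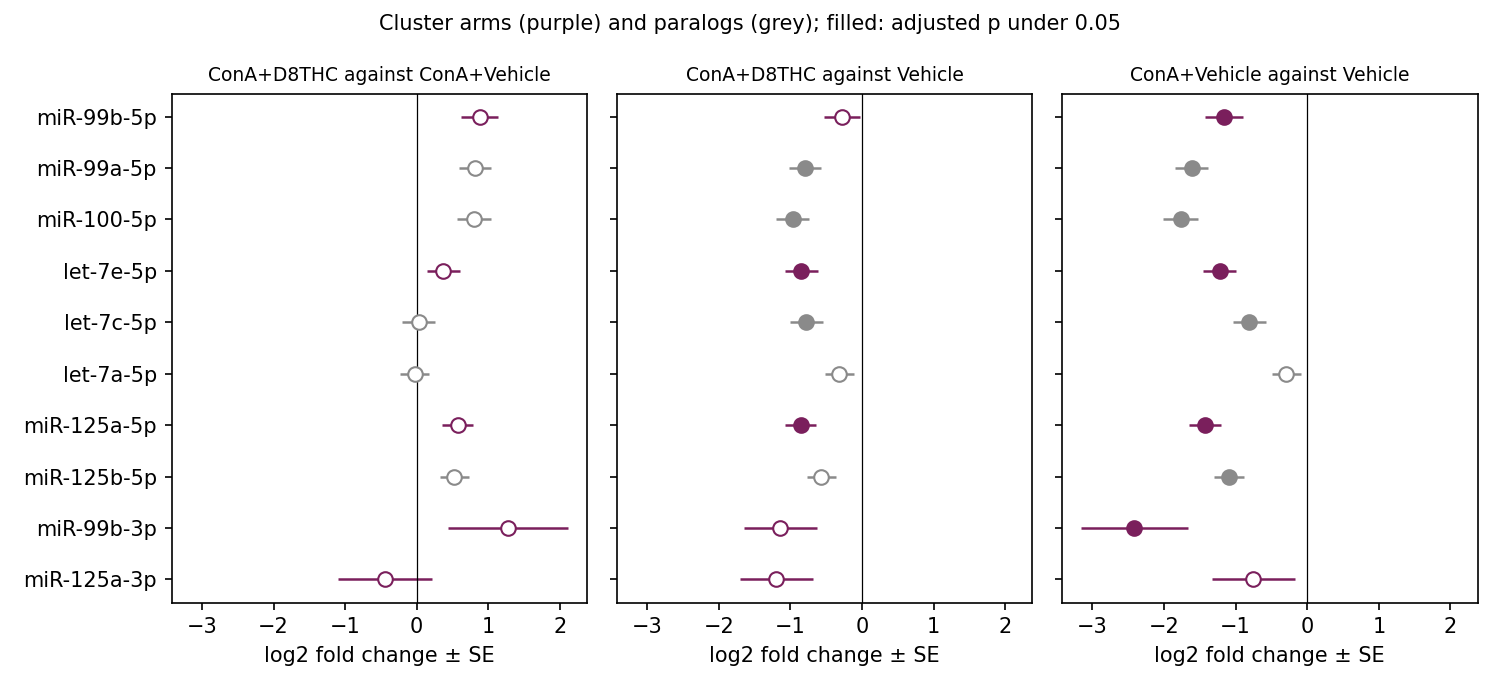
Log2 fold change with its standard error (horizontal) of cluster arms (purple) and paralogs (grey) in the 3 comparisons, first-named group over second; filled points have an edgeR adjusted p under 0.05. Against Vehicle the points lie left of 0, and in ConA+D8THC against ConA+Vehicle all points are open.

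How the cluster differed with the drug in mice given ConA is the question of ConA+D8THC against ConA+Vehicle. All 3 guide arms were higher in each ConA+D8THC library than in either ConA+Vehicle library, by 1.30- to 1.84-fold on average, without a call. Of all 297 tested miRNAs, 21.5% were likewise higher without overlap. The edgeR test called 0 of the 5 members, with 2 at an unadjusted p under 0.05, 1 called higher by DESeq2 and 0 by limma-voom. miR-99b-5p averaged 1047 ± 90.3 CPM in ConA+D8THC and 570 ± 93.2 CPM in ConA+Vehicle (log2 0.88 ± 0.26, 1.84-fold, edgeR adjusted p = 0.0876). miR-125a-5p averaged 1985 ± 157 CPM in ConA+D8THC and 1331 ± 66.9 CPM in ConA+Vehicle (log2 0.58 ± 0.22, edgeR adjusted p = 0.170). let-7e-5p averaged 1623 ± 204 CPM in ConA+D8THC and 1253 ± 129 CPM in ConA+Vehicle (log2 0.37 ± 0.23, edgeR adjusted p = 0.467). The endothelial share of counts given above was also higher in ConA+D8THC than in ConA+Vehicle and the hepatocyte share lower, and their part in these values was not tested.

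Of the passenger arms, miR-99b-3p had 12 and 11 counts in ConA+D8THC, against 4 and 0 in ConA+Vehicle, and was not called (log2 1.27 ± 0.84, edgeR adjusted p = 0.534). Its log2 value was 0.52 without ConA+Vehicle replicate 2, while without ConA+Vehicle replicate 1 the group held no count of it and the fitted 6.43 is no measure of size. miR-125a-3p had 7 and 10 counts in ConA+D8THC, against 7 and 3 in ConA+Vehicle, in libraries of unequal depth. Its log2 fold change of -0.44 ± 0.65 lay within its standard error of 0, and it turned to 0.053 without ConA+Vehicle replicate 1 and to 0.029 without ConA+D8THC replicate 1. let-7e-3p had 10 and 8 counts in ConA+D8THC, against 2 and 2 in ConA+Vehicle.

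The background of this comparison was as low as the members' count: 0% of the 297 tested miRNAs were called higher in ConA+D8THC by edgeR, 19 had an unadjusted p under 0.05 in that direction, and DESeq2 called 5 and limma-voom 1. The groups did not overlap for 4 of 5 members, all higher in ConA+D8THC, where 21.5% of the tested miRNAs did so. The median log2 fold change was 0.58 over the members and -0.04 over all tested miRNAs. The 4 include miR-99b-3p, which passed the filter in 1 ConA+D8THC library, 0 ConA+Vehicle libraries and both Vehicle libraries. It thus owed its place in the test to groups where it was higher, so nothing is read from the count or median over all 5. miR-99b-5p passed the threshold under 7 of 16 alternatives, among them without Vehicle replicate 1 (adjusted p = 0.0148), without Vehicle replicate 2 (0.00674) and without ConA+D8THC replicate 1 (0.0254). Its adjusted p ran between 0.00115 and 0.464 over the alternatives, highest without ConA+Vehicle replicate 1. The ConA+Vehicle libraries serve in this comparison and in the one with Vehicle, so the values of the 2 comparisons are not independent.

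Among the relatives, miR-99a-5p measured 543 and 635 CPM in ConA+D8THC, against 327 and 341 CPM in ConA+Vehicle (log2 0.82 ± 0.23, edgeR adjusted p = 0.0765). miR-100-5p was at log2 0.80 ± 0.24 (0.0912) and miR-125b-5p at log2 0.52 ± 0.21 (0.190). let-7a-5p and let-7c-5p differed less, at log2 -0.03 ± 0.20 and 0.03 ± 0.23. Of the 7 tested rows of the paralogous clusters, edgeR called 0, with 3 higher at an unadjusted p under 0.05, 1 called higher by DESeq2 and 0 by limma-voom. For 4 of the 7, both ConA+D8THC libraries lay above both ConA+Vehicle libraries, where 21.5% of all tested miRNAs did so. The 4 include miR-99a-3p, with 10 and 9 counts in ConA+D8THC, against 3 and 3 in ConA+Vehicle. It passed the filter through the Vehicle libraries alone, so nothing is read from that count.

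ConA+D8THC was also compared with Vehicle, which sets the mice given both agents beside mice without disease. Here 2 of the 3 guide arms were called lower, where 14.1% of tested miRNAs were. The differences between the arms were not tested. The endothelial and hepatocyte shares given above were lower in ConA+D8THC than in Vehicle and the haematopoietic share higher, with no overlap of libraries, and their part in these values was not tested. miR-125a-5p averaged 1985 ± 157 CPM in ConA+D8THC and 3591 ± 610 CPM in Vehicle and fell by 0.86 ± 0.22 on the log2 scale (edgeR adjusted p = 0.0149). let-7e-5p averaged 1623 ± 204 CPM in ConA+D8THC and 2915 ± 525 CPM in Vehicle and fell by 0.85 ± 0.23 (edgeR adjusted p = 0.0182). miR-99b-5p averaged 1047 ± 90.3 CPM in ConA+D8THC and 1272 ± 370 CPM in Vehicle and was not called (log2 -0.28 ± 0.25, edgeR adjusted p = 0.395). Its log2 fold change was 0.087 without Vehicle replicate 2.

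Both calls ended without Vehicle replicate 2, at adjusted p = 0.0751 for miR-125a-5p and 0.0942 for let-7e-5p. They also ended without ConA+D8THC replicate 1, at 0.0630 for miR-125a-5p and 0.0869 for let-7e-5p. Over the alternatives the adjusted p ran from 0.000164 to 0.0751 for miR-125a-5p and from 0.000181 to 0.0942 for let-7e-5p. Of the 5 members, 2 were called lower, where 14.1% of tested miRNAs were, and 4 had ConA+D8THC libraries below both Vehicle libraries, where 37% of tested miRNAs did. These 4 include both passenger arms, which owed their place in the test mainly to Vehicle, so nothing is read from that count. The passenger arms miR-99b-3p (log2 -1.14 ± 0.51) and miR-125a-3p (log2 -1.19 ± 0.51) were not called, with edgeR adjusted p-values of 0.108 and 0.0898. Both were called without Vehicle replicate 1, with adjusted p-values of 0.0407 for miR-99b-3p and 0.0311 for miR-125a-3p. Of the relatives, miR-99a-5p (log2 -0.80 ± 0.22) and miR-100-5p (log2 -0.97 ± 0.23) were called lower, while miR-125b-5p was at log2 -0.57 ± 0.20 (edgeR adjusted p = 0.0522).

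Ratios within a library do not depend on how libraries are scaled, and they set the guide arms against each other. miR-99b-5p made up 22.7% and 22.3% of the counts of the 3 guide arms in ConA+D8THC, 16.5% and 19.5% in ConA+Vehicle, and 15.0% and 17.3% in Vehicle. The ConA+D8THC libraries stood above all 4 others, and their exact 95% binomial intervals for counting error (21.4% to 24.0% in ConA+D8THC replicate 1) overlapped with that of ConA+Vehicle replicate 2 (17.0% to 22.1%) and of no other library. let-7e-5p made up 34.1% and 35.5% in ConA+D8THC, 38.2% and 41.2% in ConA+Vehicle, and 37.9% and 37.2% in Vehicle, lowest in the ConA+D8THC libraries. miR-125a-5p made up 43.2% and 42.1% in ConA+D8THC, 45.3% and 39.4% in ConA+Vehicle, and 47.1% and 45.5% in Vehicle. With 2 libraries a group the smallest two-sided exact permutation p is 0.333, so no share is tested.

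Each guide arm was also set against its close relatives. miR-351-5p, which has the seed of miR-125a-5p, and miR-1961, which has that of let-7e-5p, are not in these sums. miR-125a-5p held 35.9% and 34.7% of the summed miR-125a-5p and miR-125b-5p counts in ConA+D8THC, 34.9% and 33.9% in ConA+Vehicle, and 38.8% and 40.7% in Vehicle. Both groups given ConA lay below Vehicle, and they overlapped each other. let-7e-5p held 1.21% and 1.30% of the let-7 family in ConA+D8THC, 1.02% and 0.979% in ConA+Vehicle, and 1.70% and 2.11% in Vehicle, so that the groups were separate and ConA+Vehicle was lowest. miR-99b-5p held 52.5% and 51.1% of the miR-99 and miR-100 counts in ConA+D8THC, 48.6% and 52.3% in ConA+Vehicle, and 35.9% and 46.7% in Vehicle. Its share was thus higher in the ConA libraries than in either Vehicle library, the opposite direction from the shares of miR-125a-5p and let-7e-5p, and the Vehicle libraries were far apart.

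**Figure D4:**
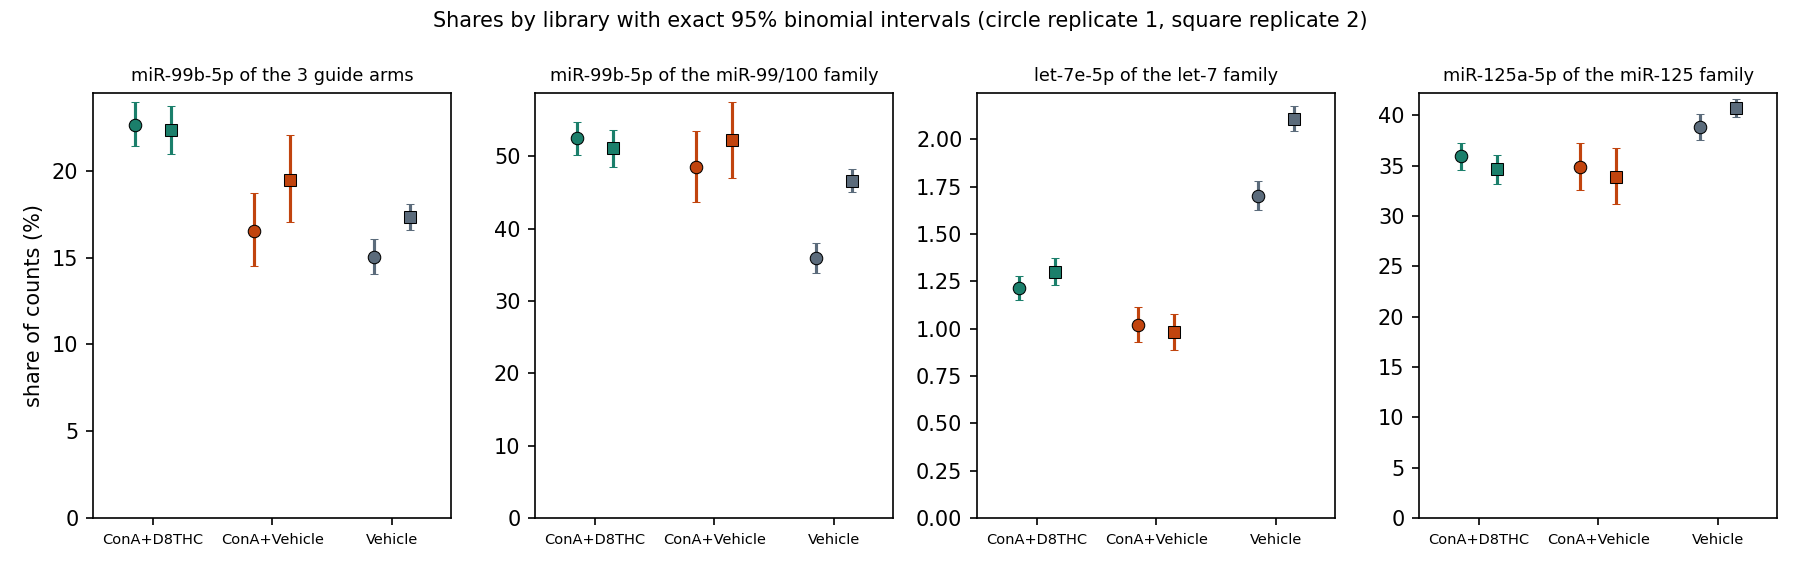
Share in percent of counts (vertical, from 0) held by a guide arm within the 3 guide arms or among its close relatives, for each library of ConA+D8THC, ConA+Vehicle and Vehicle; lines are exact 95% binomial intervals, which cover counting error only. miR-99b-5p reaches 22.7% and 22.3% of the guide arms in ConA+D8THC, above the 4 other libraries.

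The hairpins let-7e and miR-125a are shown with both mature arms in capitals, 5p first, to show where their very unequal arms lie.
Mirlet7e, chromosome 17, 17830352 to 17830444: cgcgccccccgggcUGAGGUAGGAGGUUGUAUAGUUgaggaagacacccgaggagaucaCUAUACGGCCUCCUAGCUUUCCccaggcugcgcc
Mir125a, chromosome 17, 17830812 to 17830879: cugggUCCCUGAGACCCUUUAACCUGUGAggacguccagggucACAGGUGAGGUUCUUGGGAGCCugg
The 5p arm held 99.3% to 99.6% of let-7e counts and 98.8% to 99.6% of miR-125a counts in the 6 libraries. For miR-99b it held 98.8% and 98.6% in ConA+D8THC, 98.1% and 100% in ConA+Vehicle, and 97.7% and 97.7% in Vehicle. For miR-99b both Vehicle libraries lay below the 4 others. Over the summed counts of a group, the miR-99b-5p share was 98.7% in ConA+D8THC (exact 95% binomial interval 98.0% to 99.2%) and 97.7% in Vehicle (97.0% to 98.2%). In ConA+Vehicle, with 4 and 0 counts of miR-99b-3p, it was 99.0% (97.4% to 99.7%). The intervals of both groups given ConA overlapped with that of Vehicle. These intervals cover counting error only, and the differences were not tested.

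Markers of other cell types also differed between the groups, and the guide arms are given per 100 counts of a marker in the same library. Against miR-126a-3p, the endothelial miRNA of Egfl7, miR-125a-5p stood at 1.29 and 1.08 in ConA+D8THC, 1.57 and 1.29 in ConA+Vehicle, and 1.31 and 1.41 in Vehicle. On this scale the ConA+Vehicle and Vehicle libraries overlapped. let-7e-5p stood at 1.02 and 0.914 in ConA+D8THC, 1.32 and 1.35 in ConA+Vehicle, and 1.05 and 1.15 in Vehicle, so that ConA+Vehicle was the highest. miR-99b-5p stood at 0.676 and 0.575 in ConA+D8THC, 0.572 and 0.639 in ConA+Vehicle, and 0.417 and 0.538 in Vehicle, with Vehicle lowest. Relative to miR-126a-3p, none of the 3 guide arms was lower in both ConA+Vehicle libraries than in both Vehicle libraries. The group orders given for let-7e-5p and miR-99b-5p hold for miR-126a-3p alone, not for the other endothelial marker, miR-126a-5p. The Vehicle libraries stood at 98011 and 66274 CPM for miR-126a-5p but at 242143 and 284893 CPM for miR-126a-3p, in the reverse order.

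Against miR-223-3p, which is abundant in neutrophils and was itself 8.12-fold higher in ConA+Vehicle than in Vehicle, the groups lay much further apart. miR-125a-5p stood at 9.23 and 14.6 in ConA+D8THC, 5.29 and 4.15 in ConA+Vehicle, and 92.0 and 112 in Vehicle. Against the summed miR-142a arms, miR-125a-5p stood at 1.78 and 2.76 in ConA+D8THC, 1.41 and 1.33 in ConA+Vehicle, and 4.16 and 15.5 in Vehicle, where the 2 Vehicle libraries lay far apart. Both endothelial markers, the miR-126a arms, were called lower in ConA+Vehicle against Vehicle, where 16.8% of tested miRNAs were. In ConA+D8THC against ConA+Vehicle both had separate groups, higher with D8THC, without a call, and 21.5% of tested miRNAs were likewise separate and higher. Of the 4 myeloid markers, the miR-223 arms were called higher and the miR-511 arms, from the macrophage gene Mrc1, lower in ConA+Vehicle against Vehicle. Of all 297 tested miRNAs, 59 were called higher and 50 lower there. miR-511-3p fell more than the guide arms (log2 -3.10 ± 0.47), so ratios to it would be higher in ConA+Vehicle than in Vehicle. They are not given, as it had 4 and 5 counts in ConA+Vehicle. The summed myeloid list took 1.48% to 2.18% of counts in ConA+D8THC, 2.76% to 2.92% in ConA+Vehicle and 0.348% to 0.365% in Vehicle. The part of these cell types in the levels of the cluster was not tested.

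The miRNAs whose levels followed the cluster most closely were sought among 178 other tested miRNAs with a mean of at least 50 CPM. Likeness was the root mean square difference, over the 6 libraries, from the mean of the 3 guide arms in log2 CPM centred on each miRNA's own mean. The closest was miR-125b-5p at 0.11, then miR-126a-3p at 0.14, miR-30a-3p at 0.17, miR-199a-3p at 0.19 and miR-10a-3p at 0.19. The list thus held the seed relative of miR-125a-5p, an endothelial marker (miR-126a-3p) and miR-199a-3p. The other endothelial marker, miR-126a-5p, stood further off, at rank 23 of the 178 (0.31). All 5 were called lower in ConA+Vehicle against Vehicle, which the measure of likeness favours, so this is a description. miR-199a-3p is on the list of 5 stellate cell and fibroblast markers, whose other members were spread: miR-199a-5p stood at rank 7 of the 178, miR-143-3p at rank 123 and miR-145a-5p at rank 128. The remaining marker on that list, miR-214-3p, lay under 50 CPM and was not ranked. In ConA+Vehicle against Vehicle 2 of the 5 stellate cell and fibroblast markers, both miR-199a arms, were called lower and 3 were not called. Among all tested miRNAs 16.8% were called lower.

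Within the cluster, let-7e-5p and miR-125a-5p were each the second closest to the other of 180 miRNAs (0.14). The closest to let-7e-5p was miR-30a-3p (0.08) and the closest to miR-125a-5p was miR-10a-5p (0.13). miR-99b-5p was further from both, at 0.27 and 0.28, and had miR-199a-3p, miR-126a-3p, miR-125b-5p and miR-10a-3p nearer to it than either partner. It ranked 23 for let-7e-5p and 20 for miR-125a-5p.

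**Figure D5:**
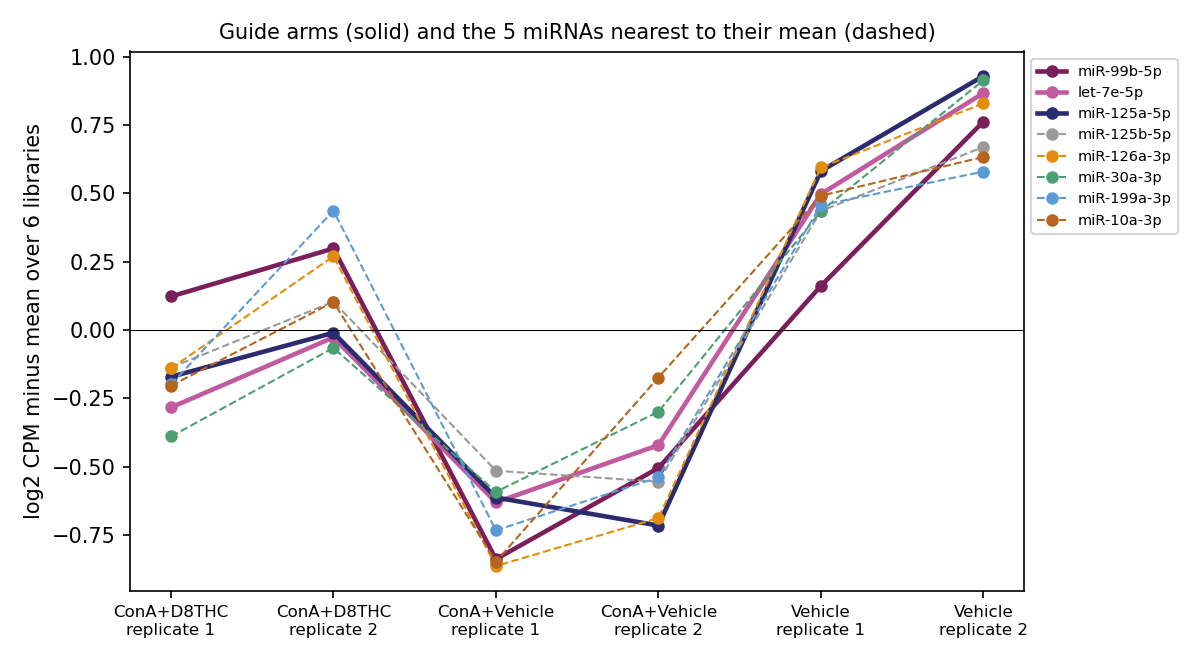
Log2 CPM minus each miRNA's mean over the 6 libraries (vertical) by library (horizontal) for the 3 guide arms (solid) and the 5 miRNAs nearest to their mean (dashed). All lie below 0 in both ConA+Vehicle libraries and above 0 in both Vehicle libraries, and miR-99b-5p is the highest guide arm in ConA+D8THC and the lowest in Vehicle.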

How the data were processed

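Small RNA libraries were made with the QIAseq miRNA kit from liver immune cells and sequenced on a NextSeq 550, per the labels' protocols and the series' design text. The authors aligned and counted reads in QIAGEN's GeneGlobe portal against mm10. The deposited values are raw counts per mature miRNA, without normalization. The sources used here do not give the aligner, miRNA release, handling of reads matching several rows or use of molecular identifiers. Intervals and floors therefore cover counting error only.

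Rows were matched by name, and the 5 members had RefSeq sequences. In R 4.3.3, filterByExpr kept 297 miRNAs, TMM factors (edgeR 4.0.16) scaled the 6 libraries, and glmQLFit (robust) with glmQLFTest tested 3 contrasts in 1 group design with 3 residual degrees of freedom. The Benjamini-Hochberg adjustment ran over all 297, with calls at an adjusted p under 0.05. Standard errors are approximate, |log2 fold change| / √F. DESeq2 1.42.0, limma-voom (limma 3.58.1), 3 other scalings, no filter, 2 groups alone, a replicate block, marker rows removed and each library left out were alternatives. The log2 CPM for likeness used a prior count of 2. The tests were checked on simulated data. Plots used Python 3.11.15 and matplotlib 3.10.9. The members and lists were chosen with earlier results of these data known. The miRNAs named were the members, their listed relatives, the marker lists and the 5 closest in level; the closest to single guide arms were chosen after their values were seen.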

Additional observations from a re-analysis of the deposited data

How the results depend on the processing

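The fall of miR-125a-5p and let-7e-5p in ConA+Vehicle against Vehicle kept its direction and its call under all 16 alternatives, with log2 values from -1.62 to -1.23 and from -1.41 to -1.01. The count of members called lower there was 3 or 4. In ConA+D8THC against ConA+Vehicle, where 0 members were called higher, the count was 1 with DESeq2, with 2 groups alone, with endothelial rows removed and at an adjusted p under 0.1, and 2 with the replicate block. With 1 library left out it ran from 0 to 1. In ConA+D8THC against Vehicle the count of 2 called lower ran from 0 to 4 with 1 library left out. Over all tested miRNAs, calls at the 0.05 threshold ran from 27 to 56 lower in ConA+Vehicle against Vehicle (50 in the reported fit), from 0 to 12 higher in ConA+D8THC against ConA+Vehicle (0) and from 19 to 64 lower in ConA+D8THC against Vehicle (42). Scaling moved the median of all miRNAs, which in ConA+Vehicle against Vehicle was 0.10 with TMM and -0.01 with DESeq2 size factors, and in ConA+D8THC against ConA+Vehicle -0.04 with TMM, -0.15 with upper-quartile factors, 0.02 with library totals and 0.06 with DESeq2 size factors.

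Replicate numbers are not stated to mark a shared animal or day, and same-numbered libraries deviated together only weakly (r of 0.07 to 0.24 across miRNAs). Under the replicate block, miR-99b-5p was at log2 0.89 (adjusted p = 0.00115) and miR-125a-5p at log2 0.57 (0.0295) in ConA+D8THC against ConA+Vehicle.

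Reversed values were those of miR-125a-3p in ConA+D8THC against ConA+Vehicle (log2 0.053 without ConA+Vehicle replicate 1 and 0.029 when ConA+D8THC replicate 1 was left out, lowest -0.92 and highest 0.053 with 1 library left out) and miR-99b-5p in ConA+D8THC against Vehicle (0.087 without Vehicle replicate 2, the highest, and -0.56 without Vehicle replicate 1, the lowest). The reversed values lay within their standard errors of 0, and the cause was not tested. Leaving let-7a-5p, 1 base from let-7e-5p, out of the let-7 family raised the share of let-7e-5p by construction, to 1.53% in ConA+D8THC, 1.23% in ConA+Vehicle and 2.35% in Vehicle. No row lay 1 base from miR-99b-5p or miR-125a-5p, so that alternative gave no value for them, and the passenger arms could not be fitted in ConA+D8THC against ConA+Vehicle with 2 groups alone. Depth limits the passenger arms, which had 0 to 42 counts a library.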
